A study of Arabidopsis thaliana with 6 samples.

Results

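Among 13286 Arabidopsis thaliana genes measured in sprayed leaves, 23 combined a signal near the detection floor in mock-treated plants with a higher signal after salicylic acid (SA) in every replicate pair. The plants were 3 to 4 weeks old. Leaves of the mock group were sprayed with 0.01% of the wetting agent Silwet, and leaves of the SA group with 1 mM SA in the same 0.01% Silwet, both 2 hours before harvest. Each group held 3 biological replicates on 1 Affymetrix array each, which makes 6 arrays, and the genotype of the plants is not given in the sources used here. The question asked of the arrays was how leaf transcripts with and without SA differed at this time.

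The 23 genes were chosen by their values. Each had a mean log2 signal under 6.5 over the 3 mock arrays and an SA minus mock difference of at least 0.8 log2 units in each of the 3 pairs of arrays with the same replicate number. A total of 27 genes met these limits, and AT3G11340, AT3G28510, AT5G44570 and AT5G22530 were left out by the same rule. Differences between SA and mock in the 23 genes are therefore a description, without a test. The ceiling of 6.5 corresponds to 90.5 linear units and lies at the 42.3rd percentile of the genes by mock mean, so 5623 genes had a mock mean below it. Leaf tissue is a mixture of cells, and a higher signal from more cells that hold a transcript cannot be told apart from more transcript per cell.

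SA is a phenolic hormone that plants make when pathogens attack, and its receptors of the NPR family act with TGA transcription factors to change transcription. Genes that respond to SA include receptors and kinases that detect or relay the presence of microbes, enzymes that attach sugars to small molecules including SA itself, and secreted proteins. An oligonucleotide array reports some fluorescence for every probe set even without the matching transcript, and such nonspecific signal sets a floor. A low signal is then a sum of that floor and of a possible transcript, and a ratio of 2 signals near the floor understates the ratio of the transcripts.

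The SA minus mock difference of the 23 genes, averaged over the pairs, had a median of 1.37 log2 units, or 2.58-fold, with a lowest value of 0.87 and a highest of 2.24. The median difference over all genes was -0.0077 and over the 5623 genes under the ceiling 0.020. The members' mock means lay between 4.64 and 6.498 with a median of 5.89, and their SA means between 6.01 and 8.13 with a median of 7.31. Even the highest SA mean was thus a moderate signal, and 13 of the 23 SA means were above 7.05, the median SA mean of all genes. On the linear scale the members gained between 37.7 and 204 units, with a median of 92.8.

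**Figure D1:**
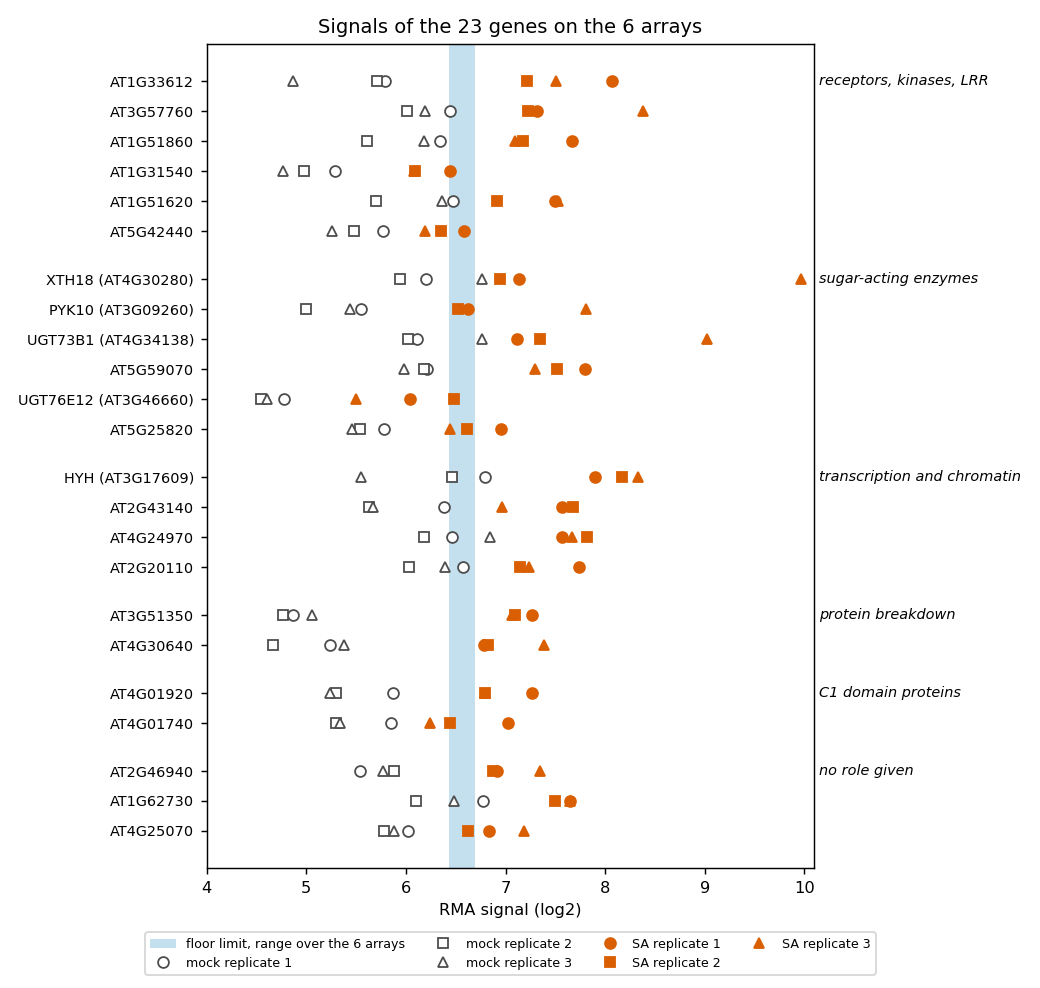
Log2 RMA signals of the 23 genes (rows, grouped by role) on each of the 6 arrays; open grey symbols are mock arrays, filled orange symbols SA arrays, and the symbol shape gives the replicate number. The blue band spans the floor limit of the 6 arrays, 6.44 to 6.69, and in each row all SA symbols lie to the right of all mock symbols, most narrowly in XTH18.

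The mock and SA signals did not overlap in any of the 23 genes, and the gap between the lowest SA and the highest mock array ran from 0.17 to 2.00 log2 units. The same separation with SA above mock was present in 8.57% of all genes and in 6.62% of those under the ceiling. Limma, fitted over all genes without a term for the replicate number, called 11 of the 23 at an adjusted p under 0.05, where 1.04% of all genes were called as rises, 0.249% of those under the ceiling and 1.62% of those at or above it. With the replicate number as a block it called 22 of them and 5.15% of all genes as rises. The members were chosen on this contrast, so nothing is read from these counts.

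Functions were assigned as background knowledge, because the annotation gives a symbol other than the locus name for only 5 of the 23 genes. A total of 6 encode receptors, kinases or, in the case of AT1G33612, a leucine-rich repeat protein with no receptor role given here, 6 encode enzymes that act on sugars or sugar conjugates, 4 encode proteins of transcription and chromatin, 2 encode proteins of protein breakdown and 2 encode C1 domain proteins. For the other 3 no role is given here. The members lie on all 5 nuclear chromosomes, with 5, 3, 5, 7 and 3 on chromosomes 1, 2, 3, 4 and 5, and no 2 of them are direct neighbours in the gene order.

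The group of receptors, kinases and the leucine-rich repeat protein differed by a median of 1.23 log2 units. AT1G33612, which encodes a leucine-rich repeat protein, gave mock signals of 5.79, 5.71 and 4.87 and SA signals of 8.07, 7.22 and 7.51 on the arrays numbered 1, 2 and 3. Its difference was 2.14 ± 0.58 (SD over pairs, n = 3), the second highest of the 23 genes, and its mock array 3 was the lowest of the 6. AT1G51860, a leucine-rich repeat receptor kinase, had mock signals of 6.34, 5.61 and 6.18 and SA signals of 7.67, 7.17 and 7.09. In this gene the difference was smallest in pair 3, at 0.92, and the average was 1.27 ± 0.33 (SD, n = 3).

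AT1G31540 encodes a TIR-NBS-LRR protein, the class of intracellular immune receptors with a Toll-like signalling domain. Mock signals of 5.29, 4.98 and 4.77 faced SA signals of 6.44, 6.09 and 6.09, a difference of 1.19 ± 0.11 (SD, n = 3). All 6 of these values stayed under the mock ceiling of 6.5, so the level after SA was still near the floor. The protein kinase gene AT1G51620 gave 6.47, 5.70 and 6.36 in mock and 7.50, 6.91 and 7.53 in SA-treated leaves, with nearly equal pair differences of 1.03, 1.22 and 1.16. The other protein kinase genes of the group, AT3G57760 and AT5G42440, had differences of 1.43 ± 0.68 and 0.87 ± 0.060 (SD, n = 3). AT3G57760 was highest on SA array 3, at 8.38 against 7.31 and 7.23 on SA arrays 1 and 2, while the pairs of AT5G42440 differed by only 0.81, 0.88 and 0.93, the lowest average among the 23 genes.

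Sugar-acting enzymes were the other large group, with a median difference of 1.47. UGT73B1 (AT4G34138), a UDP-dependent glucosyltransferase, had mock signals of 6.11, 6.02 and 6.76 and SA signals of 7.11, 7.35 and 9.03. The pair differences of 1.00, 1.33 and 2.27 averaged 1.53 ± 0.66 (SD, n = 3), and SA array 3 stood apart from the other SA arrays. UGT76E12 (AT3G46660), of another branch of the same enzyme family, had the lowest mock level of the 23 genes, at 4.78, 4.54 and 4.60. Its SA signals of 6.04, 6.48 and 5.50 were also the lowest by mean, and the difference of 1.37 ± 0.53 (SD, n = 3) rests on arrays that all lay under 6.5.

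AT5G59070 encodes a further glycosyltransferase, and AT5G25820 a protein of the exostosin family, whose plant members build cell wall polysaccharides. AT5G59070 gave 6.21, 6.19 and 5.98 in mock and 7.80, 7.52 and 7.30 in SA-treated leaves, a difference of 1.41 ± 0.15 (SD, n = 3). For AT5G25820 the signals were 5.78, 5.54 and 5.46 in mock and 6.96, 6.61 and 6.44 in SA-treated leaves, a difference of 1.08 ± 0.10 (SD, n = 3). Both genes had closely matching pairs, unlike UGT73B1 and UGT76E12.

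PYK10 (AT3G09260) encodes the beta-glucosidase of endoplasmic reticulum bodies and is known as an abundant root protein. It gave mock signals of 5.55, 5.00 and 5.44 and SA signals of 6.62, 6.52 and 7.80, a difference of 1.65 ± 0.66 (SD, n = 3) with SA array 3 the highest. The 3 measured genes of a list of 16 root markers, EXPA7, EXPA18 and AT1G34510, had differences between -0.12 and -0.059, and the mean of these 3 on an array lay between 5.39 and 5.61 in mock and between 5.39 and 5.51 in SA. XTH18 (AT4G30280), a xyloglucan endotransglucosylase/hydrolase that remodels the cell wall, had mock signals of 6.20, 5.94 and 6.77 and SA signals of 7.14, 6.94 and 9.97. The value on SA array 3 set its average of 1.71 ± 1.29 (SD, n = 3), since the average was 0.97 without pair 3. No other member's average moved by more than 1.5 times when 1 pair was left out.

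In the transcription and chromatin group HYH (AT3G17609), the bZIP homologue of the light-signalling factor HY5, reached the highest SA level of the 23 genes. It gave mock signals of 6.79, 6.46 and 5.55 and SA signals of 7.90, 8.17 and 8.33, a difference of 1.86 ± 0.85 (SD, n = 3). The spread lay mainly in mock array 3, which was the lowest of the mock arrays. AT2G43140, a basic helix-loop-helix protein gene, had signals of 6.39, 5.63 and 5.67 in mock and 7.57, 7.68 and 6.97 in SA-treated leaves, a difference of 1.51 ± 0.47 (SD, n = 3). AT2G20110, which encodes a protein with cysteine-rich CXC domains, and AT4G24970, an ATPase gene of the MORC family, which acts in gene silencing, differed by 1.04 ± 0.18 and 1.19 ± 0.41 (SD, n = 3). The mock mean of AT4G24970, 6.498, was the closest to the ceiling.

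Both genes of protein breakdown combined a low mock level with a large difference. AT3G51350, an aspartyl protease gene, gave 4.86, 4.77 and 5.06 in mock and 7.27, 7.10 and 7.06 in SA-treated leaves. It differed by 2.24 ± 0.21 (SD, n = 3), or 4.74-fold, the largest value of the 23 genes and the only 1 with every pair at or above 2 log2 units. AT4G30640, which encodes a leucine-rich repeat F-box protein, a kind of subunit that picks substrates for ubiquitin ligases, gave 5.24, 4.67 and 5.37 in mock and 6.79, 6.82 and 7.39 in SA-treated leaves. Its difference was 1.91 ± 0.32 (SD, n = 3), with the groups 1.41 log2 units apart.

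The C1 domain proteins have cysteine- and histidine-rich domains of largely unknown function in plants. AT4G01920 gave mock signals of 5.87, 5.30 and 5.24 and SA signals of 7.27, 6.79 and 6.79, and its pair differences of 1.40, 1.49 and 1.55 were among the most even. AT4G01740 differed by 1.07 ± 0.14 (SD, n = 3) from a mock mean of 5.50. Among the genes with no role given here, AT2G46940 gave 5.54, 5.88 and 5.77 in mock and 6.91, 6.87 and 7.35 in SA-treated leaves. AT1G62730 and AT4G25070 differed by 1.14 ± 0.26 and 0.99 ± 0.27 (SD, n = 3).

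The pairs did not contribute equally. The median difference of the 23 genes was 1.17 in pair 1, 1.33 in pair 2 and 1.32 in pair 3, while the medians over all genes in these pairs were 0.0049, -0.0040 and -0.038. In 11 genes pair 3 gave the largest difference and in 12 genes pair 1 gave the smallest. The highest single value, 3.20, came from XTH18 in pair 3, and in HYH, AT1G33612, PYK10, UGT73B1, AT3G57760, AT4G30640 and AT3G51350 the difference in pair 3 was also above 2.

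The limits of the rule ran through a continuum of genes. Just inside the limit of 0.8 were AT4G25070 with a smallest pair difference of 0.81, AT5G42440 with 0.81, AT4G24970 with 0.82, AT2G20110 with 0.84 and AT1G62730 with 0.87, and 7 members lay within 0.1 of it. Just outside were 8 genes, among them UGT73D1 with 0.795, AT3G47050 with 0.79, AT3G57120 with 0.78, AT1G10585 with 0.77 and AT4G01910 with 0.74. AT1G10585 was kept out by pair 1 alone, as its differences were 0.77, 3.28 and 3.57. Next to the mock ceiling, AT4G24970 and AT1G62730 were inside, and AT4G22980 and AT5G12340, with mock means of 6.53 and 6.54 and differences of 2.49 and 2.48, were outside.

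**Figure D2:**
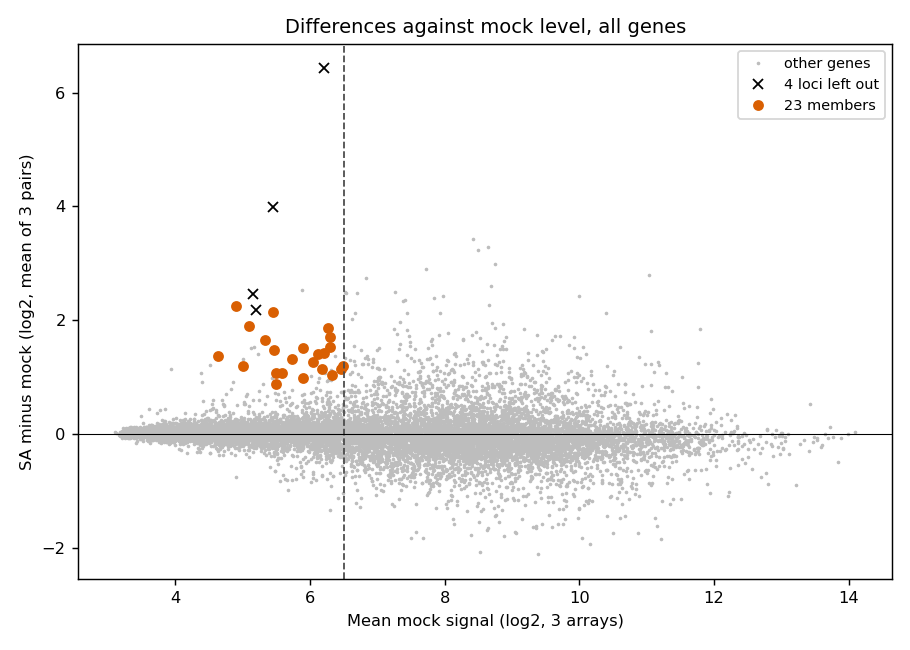
SA minus mock difference (log2, mean of 3 pairs) against the mean mock signal (log2, 3 arrays) for 13286 genes, with the 23 members in orange, the 4 left-out loci as crosses and the ceiling of 6.5 as a dashed line. The grey cloud narrows towards low signals, and the members lie at differences between 0.87 and 2.24.

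Differences of any kind were smaller near the floor. Among 2723 genes with a mock mean under 5, all but the top percentile had a difference below 0.37 log2 units, and the median SD over the mock arrays was 0.091. Between 5 and 6.5 the corresponding values were 1.07 and 0.15 over 2900 genes, and between 6.5 and 8 they were 1.52 and 0.22 over 2709 genes. A difference of at least 0.8 in each pair was met by 0.48% of the genes under the ceiling, the 4 left-out loci included, and by 2.61% of those at or above it. The opposite difference, 0.8 or more lower in each pair, was found in 0.0178% of the genes under the ceiling, which is AT5G51850 alone, and in 1.36% of those at or above it.

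**Figure D3:**
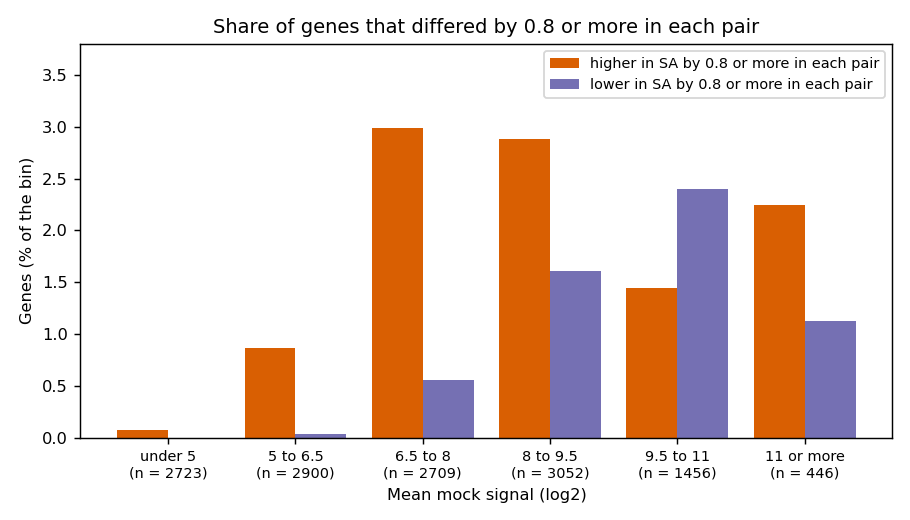
Percentage of genes, in bins of the mean mock signal, that were at least 0.8 log2 units higher (orange) or lower (purple) after SA in each of the 3 pairs. The share of higher genes was 0.073% under 5, 0.86% from 5 to 6.5 and 2.99% from 6.5 to 8, and the share of lower genes was 0 under 5.

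A floor was taken from transcripts known from pollen, seeds and roots. Of 75 listed genes 17 were measured, 9 of pollen, 5 of seeds and 3 of roots, and limma called 0 of them, with differences between -0.14 and 0.27. Their mean signals on an array lay between 5.11 and 5.30 in mock and between 5.17 and 5.34 in SA. The floor limit of an array was set at the 95th percentile of these 17 genes and lay between 6.44 and 6.69. The highest of the 17 genes was AT5G19580, a listed pollen gene with a mean of 6.90 in mock, and the 75th percentile gave a lower limit, between 5.78 and 6.26. Detection calls were not used here.

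The rule admitted only mock means under 6.5, close to the floor limit. How many members lie below that limit therefore largely follows from the rule. On all 3 mock arrays 15 of the 23 genes were below it, so for them it gives only a lower bound of the fold. For 11 of these the SA mean exceeded the mock mean held at the limit. The bounds were at least 2.02-fold for AT1G33612, at least 1.94-fold for AT5G59070, at least 1.76-fold for AT2G43140 and at least 1.65-fold for AT1G51860. AT3G51350, measured at 4.74-fold, was at least 1.47-fold higher, and AT4G30640, measured at 3.75-fold, at least 1.33-fold higher. The limit comes from 17 other genes, whose mock means ran from 3.97 to 6.90, and the floor of each member's own probe set is not known. A bound below a measured fold therefore does not show that the measured fold is too high. For AT2G46940, PYK10, AT4G01920, AT4G25070 and AT5G25820 the bounds ran from 1.37-fold down to 1.06-fold.

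No fold is given by this limit for AT1G31540, UGT76E12, AT4G01740 and AT5G42440, whose SA means did not exceed it. The other 8 genes, HYH, XTH18, UGT73B1, AT3G57760, AT4G24970, AT1G62730, AT1G51620 and AT2G20110, were above the limit on at least 1 mock array but none of them on all 3, and their mock means lay between 6.18 and 6.498. Their measured folds ran from 2.06 in AT2G20110 to 3.64 in HYH. With the mock arrays below the limit held at it, these folds fell to between 1.64 in AT1G51620 and 2.69 in HYH. The measured folds of these 8 genes thus also rest in part on signals below the limit. SA signals were above the limit on all 3 arrays in 16 of the 23 genes, and in 2, AT1G31540 and UGT76E12, on none. With the lower limit 7 genes were below it on all mock arrays and all 7 had a bound, among them AT3G51350 with at least 2.45-fold, AT4G30640 with at least 2.22-fold and PYK10 with at least 2.19-fold.

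**Figure D4:**
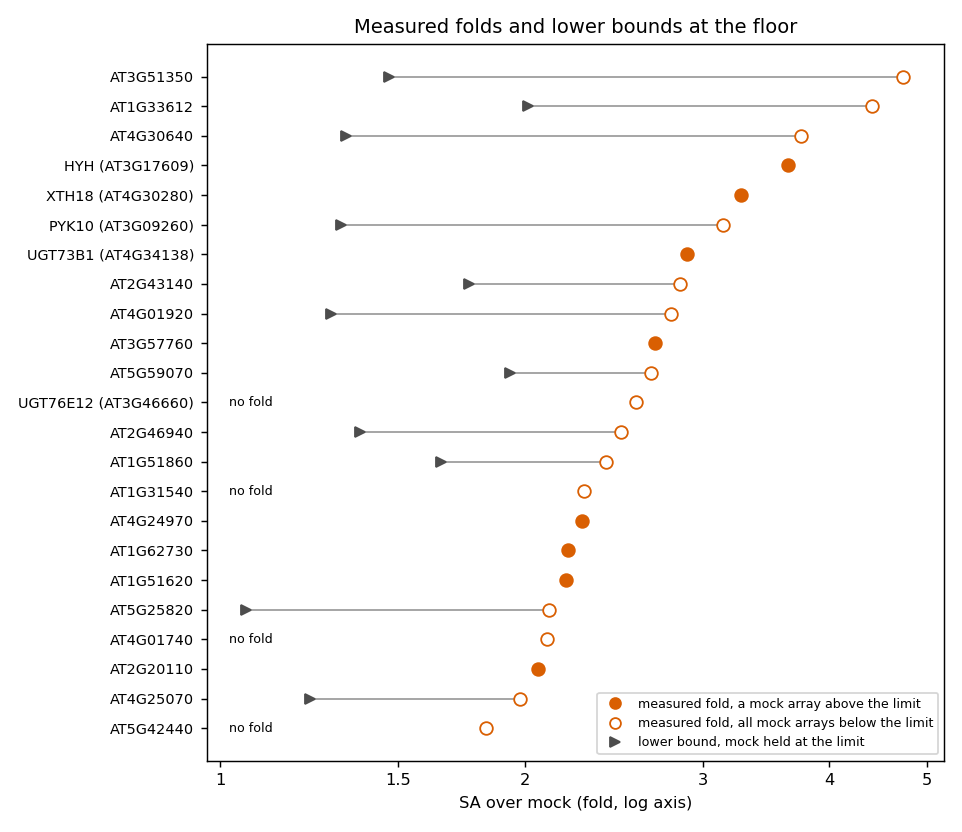
Fold of SA over mock for each of the 23 genes on a log axis. Filled circles mark the 8 genes above the floor limit on at least 1 mock array, open circles the 15 genes below it on all mock arrays, arrowheads the lower bounds of 11 of these, and the 4 genes with no fold are labelled.

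The order of the genes by measured fold therefore differs from the order by bound. AT3G51350 came first by measured fold, while its bound was below those of AT1G33612, AT5G59070, AT2G43140 and AT1G51860, whose SA means were higher. For a gene below the limit on all mock arrays, the limit takes the place of its own mock signals. The order by bound is thus the order of the SA means and does not depend on the mock levels. A value of 4.74-fold from a mock mean of 29.8 linear units corresponds to a gain of 111 units, and 3.64-fold in HYH from 77.1 units to a gain of 204 units. The gains in UGT76E12 and AT1G31540 were 39.4 and 41.6 units.

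Several members have relatives nearby or of the same name, which the rule did not choose. A list of 52 loci in 8 clusters and families, drawn up with the members' values known, had 40 measured genes, 9 of them members and 31 relatives. Of the 31 relatives limma called 2 as rises and 0 as falls, with 7 at an unadjusted p under 0.05, where 1.63% of all genes were called in either direction and 13.8% were at an unadjusted p under 0.05. With the replicate block 6 were called, all as rises, against 5.15% of all genes called as rises and 9.91% in either direction. The loci of a cluster resemble each other in sequence, and whether probe sets respond to transcripts of a relative was not tested.

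Among the loci at AT1G518, AT1G51850, the direct neighbour of AT1G51860, differed by 2.13 ± 0.39 (SE; limma adjusted p = 0.0646, and 0.00918 with the block), with pairs of 1.53, 2.79 and 2.08. AT1G51790 rose by 1.70 ± 0.28 (SE; limma adjusted p = 0.0489), a call lost without any 1 of the 6 arrays, with adjusted p from 0.0555 to 0.188, and with 32 linear units added (0.0755). AT1G51820 differed by 0.64 (limma adjusted p = 0.423, and 0.0147 with the block). AT1G51830, AT1G51840, AT1G51810 and AT1G51910 had mock means of 3.98, 4.35, 4.52 and 5.24 and differences between -0.068 and 0.11. The cluster thus held genes at the floor with small differences beside AT1G51860.

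At AT3G577, where AT3G57760 lies, AT3G57700 rose by 2.74 ± 0.33 (SE; limma adjusted p = 0.0269) from a mock mean of 6.83, above the ceiling. The adjusted p of AT3G57700 was 0.0365 without mock replicate 1 and between 0.0784 and 0.0967 without any other array. AT3G57770, the direct neighbour, and AT3G57720 had differences of -0.34 and -0.11. Among the aspartyl protease loci, AT3G51330 differed by 1.97 ± 0.53 (SE; limma adjusted p = 0.161, and 0.0197 with the block) from a mock mean of 7.33. AT3G51360, the direct neighbour of AT3G51350, had a mock mean of 5.37 and a difference of 0.070.

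In the C1 family AT4G01910, close to AT4G01920, differed by 0.94 ± 0.22 (SE; limma adjusted p = 0.109, and 0.00918 with the block). AT4G01930 and AT4G01760 had differences of 0.013 and 0.076. Of the leucine-rich repeat loci near AT1G33612, AT1G33590 and AT1G33600 were expressed at mock means of 11.68 and 11.19 and differed by 0.10 and 0.19, and AT1G33670, at 4.94, by 0.072.

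**Figure D5:**
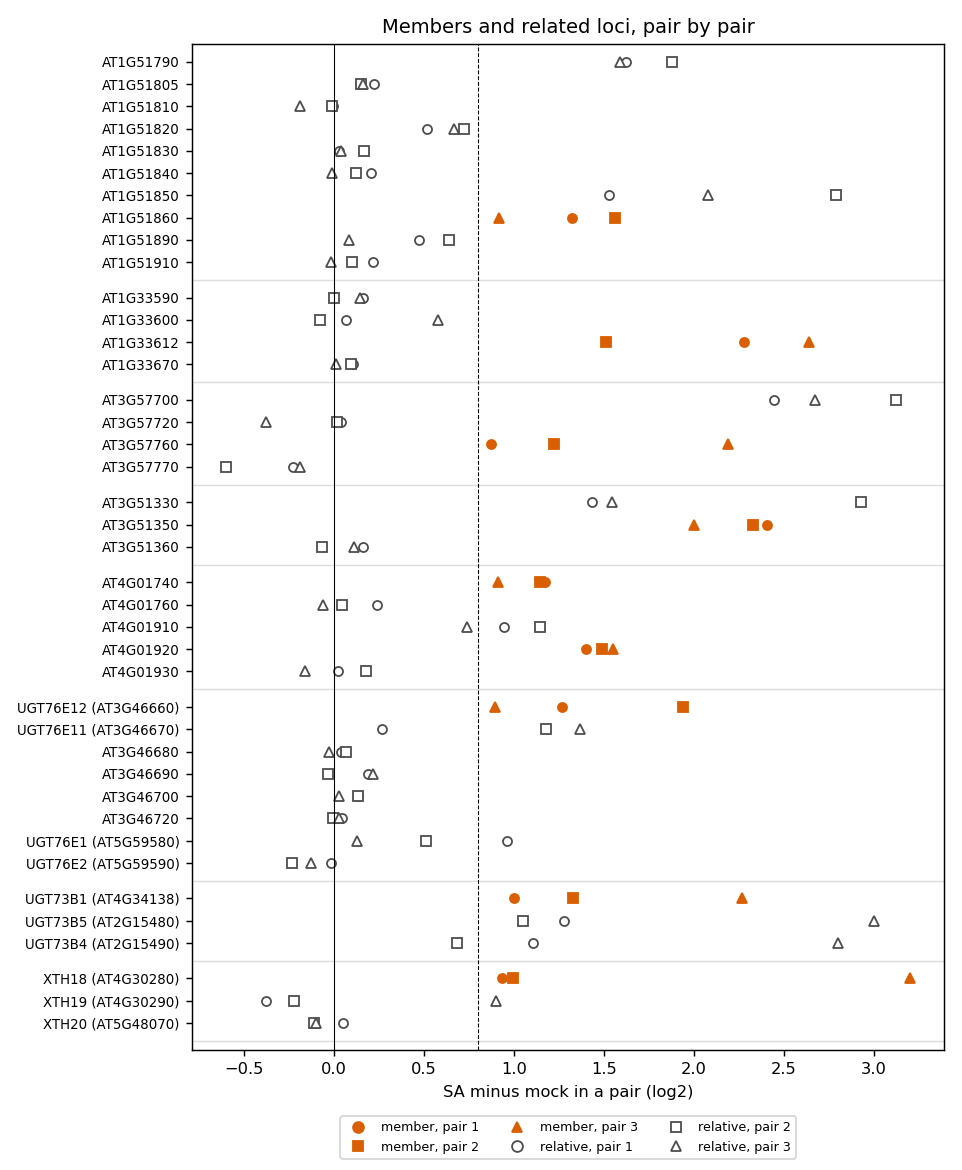
SA minus mock difference (log2) in each of the 3 pairs for 9 members (filled orange) and 31 relatives (open grey), separated by cluster or family; the dashed line marks 0.8. In the groups of AT1G51860, AT3G57760, AT3G51350 and UGT73B1 at least 1 relative lies to the right of the line in all pairs, and in that of AT1G33612 none does.

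Of the glycosyltransferase relatives, 7 of UGT76E and 2 of UGT73B, limma called 0. At an unadjusted p under 0.05 were 2, both of UGT73B, where the share over all genes was 13.8%. UGT76E11, next but 1 to UGT76E12, differed by 0.94 ± 0.40 (SE; limma adjusted p = 0.374), with pairs of 0.27, 1.18 and 1.37, and UGT76E1 by 0.54 (limma adjusted p = 0.398). AT3G46680, AT3G46690, AT3G46700 and AT3G46720, which follow UGT76E11 in the locus numbering, had differences of 0.026, 0.12, 0.099 and 0.024 at mock means between 3.84 and 5.05. UGT73B5 differed by 1.78 ± 0.40 (SE; limma adjusted p = 0.105, and 0.0501 with the block), with pairs of 1.28, 1.05 and 3.00. UGT73B4 differed by 1.53 ± 0.51 (SE; limma adjusted p = 0.249, and 0.0833 with the block), with pairs of 1.11, 0.68 and 2.80. Pair 3 gave the largest difference in both, as in UGT73B1.

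Of the 46 direct neighbours of the members in the gene order, 21 were measured, with a median difference of -0.048. Limma called 0 of the 21, with 3 at an unadjusted p under 0.05, and the block called 1 as a rise and 2 as falls. Over all genes 13.8% were at an unadjusted p under 0.05 and the block called 9.91%, so these counts were near the background.

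Families were counted without the members and the left-out loci, whose differences the rule used. Over all genes 13.8% were at an unadjusted p under 0.05, limma called 1.63% in either direction, and the block called 5.15% as rises and 9.91% in either direction. Of 48 other measured genes with a UGT name, 21 were under the mock ceiling. Limma called 0 of the 48 as rises and 1 as a fall, with 10 at an unadjusted p under 0.05, and the block called 6 as rises and 4 as falls. Of 9 other measured XTH genes 6 were under the ceiling and limma called 0, with 0 at an unadjusted p under 0.05. XTH19, the direct neighbour of XTH18, had pair differences of -0.38, -0.22 and 0.90, and XTH20 a difference of -0.052. Of 21 other measured BGLU beta-glucosidases 15 were under the ceiling and limma called 0, with 3 at an unadjusted p under 0.05, while the block called BGLU16 as a rise and BGLU44 as a fall. Of 20 other measured genes with a bZIP name limma called 0, with 2 at an unadjusted p under 0.05, and the block called BZIP53 and bZIP42 as rises. BZIP53 differed by 0.52 from a mock mean of 9.61 and bZIP42 by 0.67 from 5.05.

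From a list of 26 genes of SA synthesis and response, 3 were among the 13286 genes compared, and none of these is among the 23. The rest of the list was not examined. Its genes may still be on the array, since 8730 probe sets had no listed gene. GRX480 rose by 3.43 ± 0.26 (SE; limma adjusted p = 0.0115) from a mock mean of 8.42, which is above the ceiling, and this call was lost without SA replicate 2 (adjusted p = 0.0556). UGT74F1, a glucosyltransferase that acts on SA, had a mock mean of 6.03, under the ceiling, and a difference of 0.13 ± 0.096 (SE; limma adjusted p = 0.690). SAG101 had a mock mean of 8.15 and a difference of 0.52 (limma adjusted p = 0.796).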

How the data were processed

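The deposited table holds log2 signals of 22810 probe sets on 6 ATH1 arrays, made by the authors with RMA, per the submitters' processing notes; the version is not given in the sources used here. Medians per array lay between 7.41 and 7.51. RMA as commonly run includes quantile normalization, which removes shifts shared by most transcripts. After removal of 64 control probe sets, 13436 probe sets with 1 gene were matched to RefSeq loci (assembly TAIR10.1), the probe set with the highest mean was kept per locus, and 13286 genes remained. Another 8730 probe sets were not listed and 503 had several genes, so a gene counted as not measured may still have a probe set on the array.

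Members and lists were chosen with earlier results of these data known. The genes given with values on every array are the 15 with the largest smallest-pair difference and those with a RefSeq symbol other than the locus. Values with ± are the mean difference and the SD over pairs (n = 3) or, where stated, limma's standard error. Folds are 2 to the power of the mean log2 difference. Precision is limited by how few arrays there are: with 3 against 3, a two-sided exact test cannot go below p = 0.1.

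Limma 3.58.1 in R 4.3.3 (lmFit, eBayes, treatment only) was run on all 13286 genes with Benjamini-Hochberg adjustment, and all adjusted p-values come from it. Deviations from the group means correlated by 0.75, 0.46 and 0.55 between arrays of the same number, all above the limit of 0.1. Between arrays of unlike number the correlations ran from -0.59 to 0.14. The highest of these, mock 3 with SA 2, was also above the limit, so the limit alone does not single out the pairs. Arrays of the same number were treated as pairs, on the basis of the values and not of the labels. On simulated data for SA against mock over 13286 genes, 87.7% of genes changed by 2 log2 units and 51.3% of those changed by 1 were recovered without the block, and 92.7% and 69.7% with it. Of the calls made there, 0.249% without the block and 1.41% with it were of unchanged genes. The simulated data carried the pair effects and the residual spread of the block fit. Better recovery with the block was therefore built in, and these shares do not show which fit suits the real arrays. Families were matched on RefSeq symbols and synonyms, as descriptions were not used here. Promoter motifs and protein identities were not computed, since sequences were not used here. Of the leaf cell markers, guard cells (2 of 5 genes, mean log2 8.77 to 8.96 in mock and 8.58 to 8.71 in SA) and trichomes (1 of 3, 6.65 to 7.36 and 6.31 to 7.28) were measured with 0 calls; 9 mesophyll, 2 phloem, 4 xylem and 11 flower markers were not analysed here.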

Additional observations from a re-analysis of the deposited data

Results flagged for a closer look

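Probe sets outside the gene comparison showed the same pattern. Of 8730 probe sets without a listed gene, 2407 had a mock mean under 6.5, and 22 of these (0.914%) were at least 0.8 log2 units higher after SA in each pair. The largest smallest-pair difference was 4.90, in a probe set with a mock mean of 4.91 (SD 1.04 over the mock arrays) and an SA mean of 10.83. The next in this order had 1.70 and 1.61. Of 225 probe sets of several genes with a mock mean under 6.5, a further 2 met the rule as well. By the rule that chose them, each SA signal was above the mock array of the same number, and the mock arrays are the controls. None of these probe sets is named here.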

How the results depend on the processing

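The number of genes meeting the rule, 23, became 13 with a mock ceiling of 6.0 and 45 with 7.0, 50 with at least 0.5 and 10 with at least 1.0 in each pair, 40 with group means and no overlap in place of pairs, and 8 with 32 linear units added; it was 28 after centring arrays on their medians, 21 after renewed quantile normalization and 23 with the lowest probe set of a locus. Leaving out 1 pair gave 30 to 36. The median difference, 1.37, became 1.10 with at least 0.5, 1.58 with at least 1.0, 1.16 with group means and 1.20 with 32 units added, and 1.15 to 1.47 without 1 pair. Each of these is the median over the genes that met the changed rule, not over the same 23. That was 40 genes with group means, 8 with 32 units added and 30 to 36 without 1 pair. They do not show how the median of the 23 genes themselves moved. With mock signals held at the floor the median of the 23 genes was 0.72 (genes without a fold counted as 0). The 8 genes not below the limit on all mock arrays kept their measured difference there. The median became 1.19 with the 75th percentile, where 16 genes kept it, and 1.31 with the 25th percentile of all probe sets, where 19 did. With the 10th, which was added after the data were seen, all 23 kept it, so the value of 1.37 is the median without holding. Without 1 pair the first of these medians, 0.72, became 0.50 to 0.70. Over all genes limma called 217, 1316 with the replicate block, 135 with 32 units added and 5 to 57 without 1 array. With the replicate block limma also called 0 of the 17 floor genes, 0 of 2 guard cell and 0 of 1 trichome markers; the calls it changed among relatives, neighbours and families are given in the report. The cause of these changes was not tested, beyond fewer or more genes admitted by a changed limit.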

Other observations

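In 17 of the 23 genes (73.9%) mock array 1 was the highest of the mock arrays. Among the 2900 genes with a mock mean between 5 and 6.5, mock array 1 was the highest in 21.9% and mock array 3 in 55.3%. In SA-treated leaves array 1 was the highest in 11 of the 23 genes and in 32.9% of the 2900. In 13 of the 23 genes the same number was the highest in both groups.

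The members also varied more among the mock arrays than other genes of low signal. Their median SD over the mock arrays was 0.31, against 0.15 for genes with a mock mean between 5 and 6.5, and 19 of the 23 lay above that value. Of the members, 2 had a mock mean under 5 and so lay outside that range. These 2 observations were made after the values were seen, on mock values that the rule itself used, and no test was made of them.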
